A study of Chlorocebus aethiops with 12 samples.

Results

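The transcripts described here belong to the unfolded protein response and the integrated stress response. They were chosen as 35 RefSeq accessions of human transcripts, which stand for 33 genes, and were matched by accession to the probes of the arrays. Of these, 33 accessions were found, with 48 probes among the 41000 on the array. The remaining accessions, alternative transcripts of SYVN1 and ASNS, matched no probe, while each of the 33 genes was measured through another accession. All 33 were well above background on each of the 12 arrays and passed the filter on dim probes, as did 23748 of 32379 accessions in the whole series.

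RNA was measured in COS-1 cells, a fibroblast-like line from African green monkey kidney. All cells were transiently transfected with the glucocorticoid receptor (GR), a transcription factor that acts when a glucocorticoid binds it, and GR+MDFIC cells also received MDFIC, a protein with a MyoD family inhibitor domain. At 48 h after transfection they received vehicle or 100 nM dexamethasone (Dex), a synthetic glucocorticoid, for 6 h, which gave 4 groups: GR vehicle, GR Dex, GR+MDFIC vehicle and GR+MDFIC Dex. Each group had 3 biological replicates on 1 array each, and the design asks how Dex acts through GR and what MDFIC changes. No stress-inducing agent is named in the labels, no cells without GR were analysed here, and the share of cells that took up the plasmids is not stated. The probes were designed for human transcripts and the RNA is from a monkey, and fewer expressing cells cannot be told apart from less RNA per cell. The files identify transcripts by accession only, so gene names follow the human RefSeq records and not a column of the files.

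The endoplasmic reticulum (ER) folds secreted and membrane proteins, and unfolded proteins there activate 3 sensors. ERN1 (also called IRE1) splices the XBP1 transcript into the form that encodes an active transcription factor, ATF6 is cleaved to release one, and EIF2AK3 (also called PERK) phosphorylates the translation factor eIF2alpha. Phosphorylated eIF2alpha slows protein synthesis overall while ATF4 is translated, and ATF4 then raises DDIT3 and genes of amino acid and redox metabolism. Other kinases that sense amino acid shortage or viral RNA reach ATF4 by the same route, which is why this arm is called the integrated stress response. XBP1 and ATF6 raise chaperones, disulfide isomerases and genes of ER-associated degradation (ERAD), which returns misfolded proteins to the cytosol.

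Levels are log2 signals relative to the 75th percentile of the array, so a level of 0 equals that percentile, and levels of different probes were not compared. On the 12 arrays 70.3% to 75.2% of the spots were well above background. Slide 1 held the 3 GR vehicle arrays and GR Dex replicate 1, slide 2 held GR Dex replicates 2 and 3 and GR+MDFIC vehicle replicates 1 and 2, and slide 3 held GR+MDFIC vehicle replicate 3 and all 3 GR+MDFIC Dex arrays. Slide 3 was dimmer, with a mean 75th percentile signal of 386 against 850 on slide 1 and 868 on slide 2. MDFIC (NM_199072) averaged 5.68 in GR+MDFIC vehicle and 5.09 in GR+MDFIC Dex, against -3.23 in GR vehicle and -3.31 in GR Dex, as labelled. GR itself had no probe under the accession looked up, NM_000176, and was not analysed here. Among cell type markers, VIM, KRT8 and KRT18 were detected on all 12 arrays, as were KRT19, CDH1, EPCAM, CD3E, VWF and ALB, while COL1A2, PTPRC and PECAM1 were detected on 0 arrays. The fibroblast marker COL1A2 was thus not detected in a line labelled fibroblast-like, while the mesenchymal marker VIM was. COL1A1, also looked up, had no probe under its accession. A human probe read on monkey RNA cannot show that COL1A2 is absent.

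Dex lowered DDIT3, XBP1 and 4 of the 5 other ATF4 targets among the members in both kinds of cells. Most chaperones, isomerases and degradation genes were not called. Outside the members, 7 further genes picked as ATF4 targets were not called, but the pick holds only uncalled genes. Others on the same list of 53 pathway genes were called in both directions. In each kind of cells 4 rose, among them SLC7A5, and 3 fell, among them TARS. Normexp background correction kept 0 of the 8 calls in GR cells and 1 of the 10 in GR+MDFIC cells. Under it SESN2 in GR+MDFIC cells was not below vehicle. In GR cells 8 of the 33 transcripts fell and 0 rose. They were DDIT3, TRIB3, CHAC1, SESN2, PPP1R15A, XBP1, HERPUD1 and DNAJB9, and DDIT3 fell the most of these, to 2.05-fold below vehicle. A fall at a Benjamini-Hochberg adjusted p under 0.05 in limma was called for 24.2% of the members and for 2.77% of all accessions tested, while 4.4% of all accessions rose. In GR+MDFIC cells the same 8 fell together with HSPA5, and HYOU1 was called higher. These 9 falls are 27.3% of the members, against 6.94% of all accessions, and the 1 rise is 3.03%, against 6.59%. The 8 falls in GR cells were thus all shared (100%), and made up 88.9% of the falls in GR+MDFIC cells, while 490 falls over all accessions made up 74.5% of the falls in GR cells and 29.7% of those in GR+MDFIC cells. The comparisons in GR and GR+MDFIC cells share no arrays, but they share 1 estimate of the spread.

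**Figure D1:**
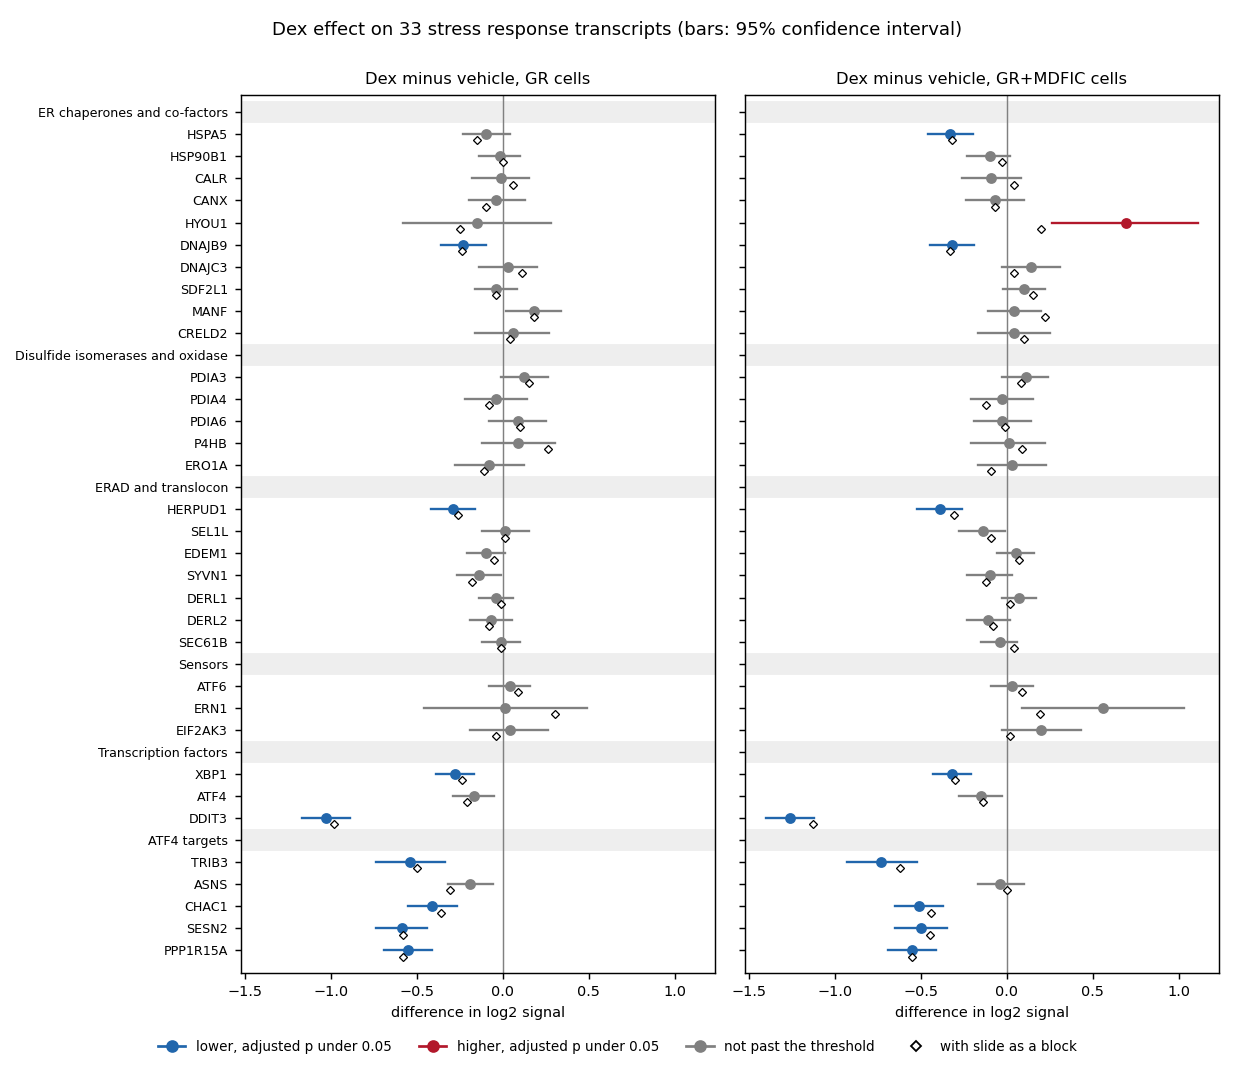
The plot shows the Dex effect on each of the 33 transcripts, as Dex minus vehicle in log2 signal, in GR cells (left) and GR+MDFIC cells (right), in blocks by role. Circles are limma estimates with 95% confidence intervals, blue for lower and red for higher at an adjusted p under 0.05, and diamonds are the estimates with slide as a block. Blue points include 2 of the 3 transcription factors and 4 of the 5 ATF4 targets at the bottom in each panel (SESN2 at right turned to 0.06 with normexp background correction), and the red point of HYOU1 lies far from its diamond at 0.20.

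The median effect over the 33 transcripts was small, at -0.04 on the log2 scale in both GR and GR+MDFIC cells, against 0.01 and -0.01 over all accessions. With normexp background correction the median in GR+MDFIC cells was -0.36, where that of all accessions was 0.44 and 29 of the 33 members (87.9%) lay below it. Of the 8 falls in GR cells, sizes ran from 0.23 to 1.03, and the sizes of the 10 calls in GR+MDFIC cells ran from 0.32 to 1.26. The arrays of vehicle and Dex did not overlap for 12 members in GR cells (36.4%, against 26.2% of all accessions) and for 17 in GR+MDFIC cells (51.5%, against 32.2%). Replicates of a group lay close together, with a median SD over the members of 0.06 or 0.07 in each group.

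The ATF4 arm held most of the falls. DDIT3 (NM_004083), which encodes CHOP, a transcription factor that promotes cell death under lasting stress, read 2.56, 2.55 and 2.53 on the GR vehicle arrays and 1.56, 1.47 and 1.52 on the GR Dex arrays. With MDFIC it read 2.79, 2.71 and 2.56 with vehicle and 1.48, 1.36 and 1.44 with Dex. All 6 Dex arrays thus lay far below all 6 vehicle arrays, on every slide. The log2 fold was -1.03 ± 0.06 in GR cells (SE, Benjamini-Hochberg adjusted p = 1.07e-05 in limma) and -1.26 ± 0.06 in GR+MDFIC cells (SE, Benjamini-Hochberg adjusted p = 2.02e-06 in limma), which is 2.05-fold and 2.4-fold lower. Ordered from the most negative log2 fold, DDIT3 stood at place 104 of 23748 accessions in GR cells and at place 443 in GR+MDFIC cells. Within slide 1 alone the difference in GR cells was -0.98, and within slide 3 alone it was -1.13 in GR+MDFIC cells.

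ATF4 (NM_001675), the transcription factor that drives this arm, is regulated mainly through its translation, which arrays do not measure. Its transcript read 5.60, 5.68 and 5.66 in GR vehicle and 5.44, 5.57 and 5.42 in GR Dex. With MDFIC the vehicle arrays read 5.56, 5.56 and 5.54 and the Dex arrays 5.35, 5.49 and 5.36. The Dex arrays lay below the vehicle arrays in both kinds of cells, by 0.17 and 0.15 on average, and neither difference passed (limma, Benjamini-Hochberg adjusted p = 0.114 in GR and 0.098 in GR+MDFIC cells). The mean of its 2 probes gave -0.17 in GR+MDFIC cells and passed there (limma, Benjamini-Hochberg adjusted p = 0.0411).

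Of the 5 other ATF4 targets, 4 fell in each kind of cells. All 4 were below vehicle under each scaling and background correction tried in GR cells. The same held in GR+MDFIC cells apart from SESN2, which gave 0.06 on the log2 scale with normexp background correction. The median of all accessions was 0.44 in that fit, and 29 of the 33 members lay below it. TRIB3 (NM_021158), a pseudokinase induced by CHOP and ATF4 that restrains both, read 5.15, 4.86 and 5.12 in GR vehicle and 4.54, 4.50 and 4.47 in GR Dex. With MDFIC it went from 5.19, 5.14 and 5.0 to 4.27, 4.51 and 4.38. No vehicle array fell within the range of the Dex arrays. The log2 folds were -0.54 ± 0.09 (SE, Benjamini-Hochberg adjusted p = 0.00586 in limma) and -0.73 ± 0.09 (SE, Benjamini-Hochberg adjusted p = 0.000802 in limma). Its other probe, at a dimmer signal, gave -0.58 and -0.59 and was called lower in both.

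SESN2 (NM_031459), a leucine sensor that restrains the growth kinase mTORC1, read -1.21, -1.20 and -1.31 in GR vehicle and -1.82, -1.76 and -1.91 in GR Dex. With MDFIC it read -1.16, -1.05 and -1.17 with vehicle and -1.52, -1.62 and -1.72 with Dex. The groups were well apart in each kind of cells, and the log2 fold in GR cells was -0.59 ± 0.07 (SE, Benjamini-Hochberg adjusted p = 0.000579 in limma). In GR+MDFIC cells it was -0.50 ± 0.07 (SE, Benjamini-Hochberg adjusted p = 0.0013 in limma), and 0.06 with normexp background correction.

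PPP1R15A (NM_014330) encodes GADD34, which directs a phosphatase to eIF2alpha and so ends the translational arrest. It read 0.06, 0.01 and -0.08 in GR vehicle and -0.59, -0.47 and -0.60 in GR Dex. In the presence of MDFIC the vehicle arrays read 0.11, 0.25 and 0.19 and the Dex arrays -0.29, -0.43 and -0.38. Each Dex array was below each vehicle array, and the log2 fold was -0.55 ± 0.06 in both kinds of cells (SE, Benjamini-Hochberg adjusted p = 0.000624 in limma in GR and 5e-04 in GR+MDFIC cells).

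CHAC1 (NM_024111), an enzyme that breaks down glutathione, read 0.46, 0.68 and 0.52 in GR vehicle and 0.20, 0.14 and 0.08 in GR Dex. With MDFIC it read 0.73, 0.77 and 0.65 with vehicle, and the Dex arrays lay within 0.01 of each other at 0.21, 0.20 and 0.21. It fell by 0.41 in GR cells (SE 0.06, Benjamini-Hochberg adjusted p = 0.00328 in limma) and by 0.51 in GR+MDFIC cells (SE 0.06, Benjamini-Hochberg adjusted p = 0.000773 in limma).

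ASNS (NM_001673), which makes asparagine, was the only target of the 5 with no call. It read 4.22, 4.20 and 4.22 in GR vehicle and 3.90, 4.06 and 4.12 in GR Dex, and the lowest of these was the Dex array on slide 1. In GR+MDFIC cells it read 4.21, 4.14 and 4.13 with vehicle and 4.12, 4.18 and 4.08 with Dex, where the groups overlapped. The differences were -0.19 ± 0.06 in GR cells (SE, Benjamini-Hochberg adjusted p = 0.0973 in limma) and -0.04 ± 0.06 in GR+MDFIC cells (SE, Benjamini-Hochberg adjusted p = 0.71 in limma). With slide as a block, which uses that array alone for Dex, it was -0.31 in GR cells and passed (limma, Benjamini-Hochberg adjusted p = 0.0451).

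**Figure D2:**
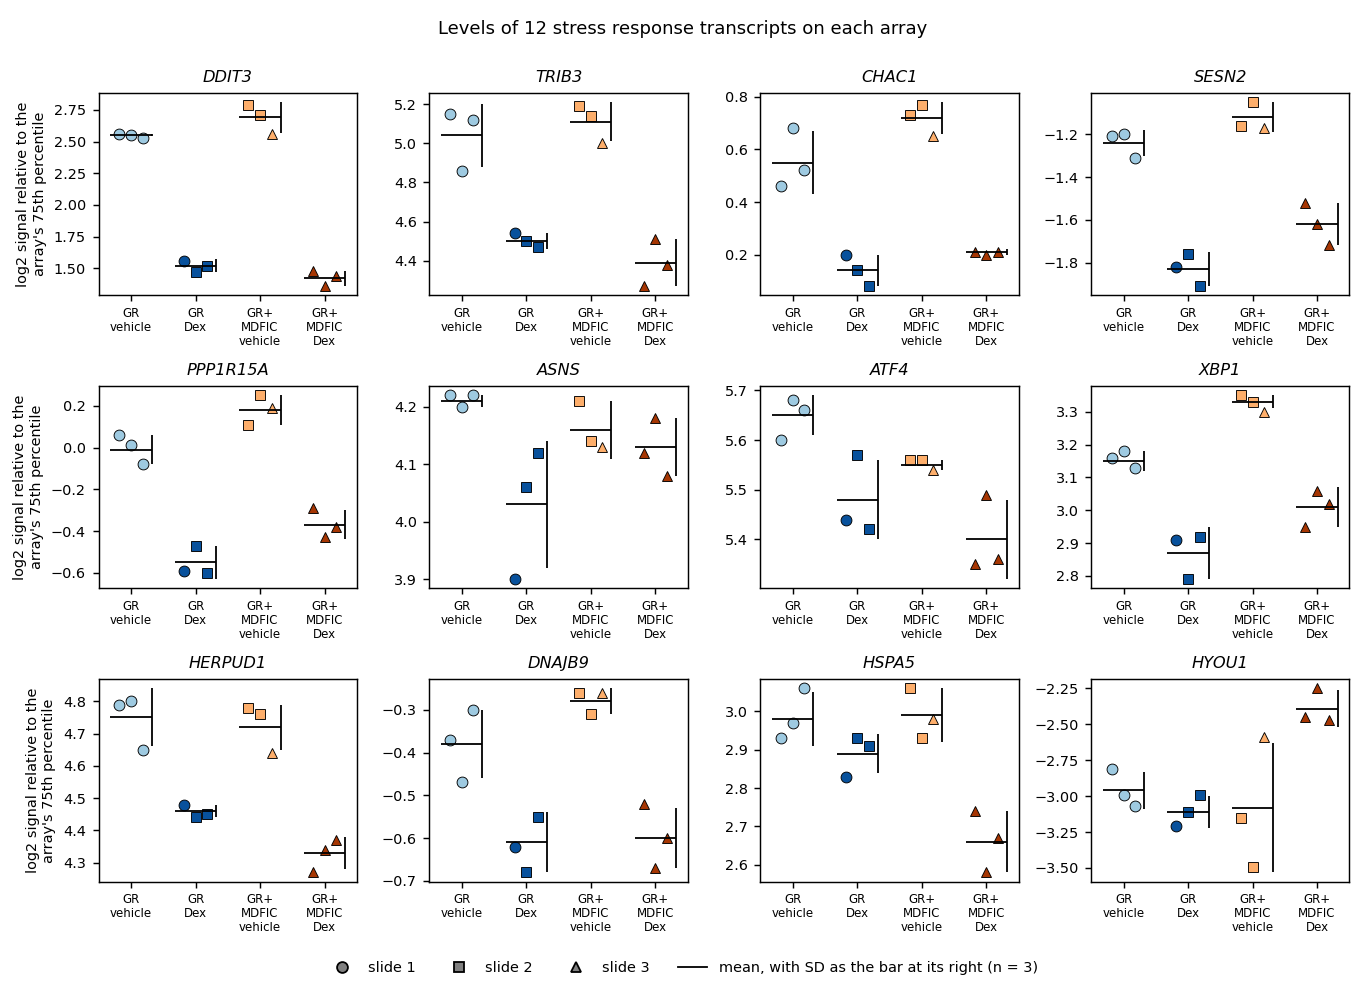
The plot shows the level of 12 of the transcripts on each of the 12 arrays, as log2 signal relative to the array's 75th percentile, with the vertical axis scaled separately for each transcript. Marker shape gives the slide, horizontal lines are group means and the bars at their right are SD (n = 3). DDIT3 lies between 2.53 and 2.79 on the 6 vehicle arrays and between 1.36 and 1.56 on the 6 Dex arrays, while HYOU1 is highest on the 4 arrays of slide 3 (triangles), vehicle or Dex.

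On the side of the ER sensors, XBP1 (NM_005080) fell in both kinds of cells. It read 3.16, 3.18 and 3.13 in GR vehicle and 2.91, 2.79 and 2.92 in GR Dex, and 3.35, 3.33 and 3.30 against 2.95, 3.06 and 3.02 in GR+MDFIC cells. The Dex arrays of each kind of cells lay below its vehicle arrays, by 0.28 ± 0.05 in GR cells (SE, Benjamini-Hochberg adjusted p = 0.0074 in limma) and 0.32 ± 0.05 in GR+MDFIC cells (SE, Benjamini-Hochberg adjusted p = 0.00267 in limma). Whether the probe distinguishes spliced from unspliced XBP1 was not tested.

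None of the 3 sensors was called in either comparison with all 12 arrays. ATF6 (NM_007348) read 1.57, 1.58 and 1.69 in GR vehicle, 1.70, 1.64 and 1.61 in GR Dex, 1.59, 1.63 and 1.51 in GR+MDFIC vehicle and 1.65, 1.53 and 1.63 in GR+MDFIC Dex. EIF2AK3 (NM_004836) read -1.34, -1.65 and -1.49, then -1.53, -1.53 and -1.31, then -1.68, -1.71 and -1.42, and last -1.44, -1.37 and -1.40 in the same order of groups. Both overlapped between vehicle and Dex, with Dex effects between 0.03 and 0.20 on the log2 scale. The 95% confidence intervals of the Dex effect ran from -0.08 to 0.16 in GR cells and -0.09 to 0.15 in GR+MDFIC cells for ATF6, and from -0.19 to 0.26 and -0.03 to 0.43 for EIF2AK3.

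ERN1 (NM_001433) was dim and more variable, with an SD of up to 0.38 in the other groups and 0.09 in GR+MDFIC Dex. It read -4.74, -5.13 and -5.10 in GR vehicle and -4.69, -4.90 and -5.33 in GR Dex. In GR+MDFIC cells it read -5.22, -4.81 and -4.46 with vehicle and -4.18, -4.27 and -4.36 with Dex. The 4 arrays of slide 3 were the highest, from -4.46 to -4.18, and all others lay between -5.33 and -4.69. For GR cells the Dex difference was 0.01, while GR+MDFIC cells gave 0.56 ± 0.21 (SE, Benjamini-Hochberg adjusted p = 0.106 in limma), and 0.19 within slide 3. Without GR+MDFIC vehicle replicate 3, the vehicle array on slide 3, ERN1 gave 0.74 in GR+MDFIC cells and passed (limma, Benjamini-Hochberg adjusted p = 0.0261), in a fit that called 26.6% of all accessions.

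Of the 10 ER chaperones and co-factors, DNAJB9 fell in both kinds of cells, HSPA5 fell and HYOU1 was called higher in GR+MDFIC cells, and the others were not called. DNAJB9 (NM_012328), also called ERdj4, is a co-chaperone of BiP and a target of XBP1. It read -0.37, -0.47 and -0.30 in GR vehicle and -0.62, -0.68 and -0.55 in GR Dex, and -0.26, -0.31 and -0.26 against -0.52, -0.67 and -0.60 in GR+MDFIC cells. The arrays did not overlap, and the differences were -0.23 ± 0.06 (SE, Benjamini-Hochberg adjusted p = 0.0446 in limma) and -0.32 ± 0.06 (SE, Benjamini-Hochberg adjusted p = 0.00691 in limma). In GR cells the call did not survive the loss of any 1 of 9 arrays, with limma Benjamini-Hochberg adjusted p from 0.0539 to 0.159, and kept only without GR vehicle replicate 2, GR Dex replicate 3 or GR+MDFIC Dex replicate 1.

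HSPA5 (NM_005347) encodes BiP, the main ER Hsp70, which binds unfolded proteins and holds the sensors inactive. It read 2.93, 2.97 and 3.06 in GR vehicle and 2.83, 2.93 and 2.91 in GR Dex, with arrays that touched at 2.93. With MDFIC it read 3.06, 2.93 and 2.98 with vehicle and 2.74, 2.58 and 2.67 with Dex, which were the 3 lowest of the 12 arrays. The difference was -0.10 ± 0.06 in GR cells (SE, Benjamini-Hochberg adjusted p = 0.448 in limma) and -0.33 ± 0.06 in GR+MDFIC cells (SE, Benjamini-Hochberg adjusted p = 0.00606 in limma), and -0.32 within slide 3. A dimmer second probe gave -0.59 ± 0.19 in GR cells (SE, Benjamini-Hochberg adjusted p = 0.105 in limma) and -0.71 ± 0.19 in GR+MDFIC cells (SE, Benjamini-Hochberg adjusted p = 0.0347 in limma). With the mean of both probes HSPA5 was also called in GR cells, at -0.34 (limma, Benjamini-Hochberg adjusted p = 0.0383).

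HYOU1 (NM_006389), also called GRP170, is a nucleotide exchange factor for BiP and itself a chaperone. It read -2.81, -2.99 and -3.07 in GR vehicle and -3.21, -3.11 and -2.99 in GR Dex, which overlapped. In GR+MDFIC cells it read -3.15, -3.49 and -2.59 with vehicle and -2.45, -2.25 and -2.47 with Dex. The third vehicle array, on slide 3, was 0.73 above the mean of the vehicle arrays on slide 2, and close to the Dex arrays, all of which were on slide 3. The log2 fold was 0.69 ± 0.19, or 1.61-fold (SE, Benjamini-Hochberg adjusted p = 0.0436 in limma), against 0.20 within slide 3. When arrays were left out 1 at a time, the call was kept only without that vehicle array. Leaving out any of the other 11 arrays ended it, with limma Benjamini-Hochberg adjusted p from 0.0568 to 0.133. The fold without GR+MDFIC vehicle replicate 2 was 0.48 on the log2 scale. Of all 26 alternative settings, 8 kept the call. Over all members, 3 were higher and 2 lower on slide 3 than on any other array (HYOU1, ERN1 and DNAJC3, and HSP90B1 and CALR), as were 1515 and 1592 of 23748 accessions.

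The other 7 chaperones and co-factors had differences between -0.04 and 0.18 in GR cells and between -0.10 and 0.14 in GR+MDFIC cells. HSP90B1, the ER member of the Hsp90 family, read 6.41 to 6.47 in GR vehicle and 6.38 to 6.44 in GR Dex. MANF, a small secreted protein induced by ER stress, read 6.42 to 6.56 in GR vehicle and 6.65 to 6.67 in GR Dex. Its groups did not overlap, and the difference of 0.18 ± 0.07 did not pass (SE, Benjamini-Hochberg adjusted p = 0.189 in limma). It did pass without GR+MDFIC vehicle replicate 3, at the same 0.18 (limma, Benjamini-Hochberg adjusted p = 0.0413), and with normexp and quantile scaling together, at 0.24 (limma, Benjamini-Hochberg adjusted p = 0.031). MANF in GR+MDFIC cells overlapped between vehicle and Dex, at a difference of 0.04. CALR and CANX, lectin chaperones that retain glycoproteins until they are folded, DNAJC3, which inhibits EIF2AK3, and SDF2L1 and CRELD2, further genes induced by ER stress, were also without a call.

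All 5 disulfide isomerase and oxidase transcripts were without a call, at differences from -0.08 to 0.12 in GR cells and -0.03 to 0.11 in GR+MDFIC cells. PDIA3, P4HB, PDIA4 and PDIA6 form and rearrange disulfide bonds in client proteins, and ERO1A reoxidises the isomerases. PDIA3 had the highest of these, at 0.12 with a 95% confidence interval from -0.01 to 0.26 in GR cells. Their 95% confidence intervals lay within -0.28 and 0.30 in GR cells and within -0.21 and 0.24 in GR+MDFIC cells.

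Among 7 ERAD and translocon transcripts 1 fell in each kind of cells. This was HERPUD1 (NM_014685), a membrane protein that gathers the degradation machinery at the ER. It read 4.79, 4.80 and 4.65 in GR vehicle and 4.48, 4.44 and 4.45 in GR Dex, and 4.78, 4.76 and 4.64 against 4.27, 4.34 and 4.37 in GR+MDFIC cells. Dex and vehicle arrays did not overlap, and HERPUD1 fell by 0.29 ± 0.06 in GR cells (SE, Benjamini-Hochberg adjusted p = 0.0146 in limma) and by 0.39 ± 0.06 in GR+MDFIC cells (SE, Benjamini-Hochberg adjusted p = 0.00199 in limma). Its call in GR cells ended when GR Dex replicate 2, or replicate 1 or 2 of GR vehicle, was left out (Benjamini-Hochberg adjusted p from 0.0581 to 0.0595 in limma). SYVN1 and SEL1L form the ubiquitin ligase complex of this pathway, and they gave -0.14 and 0.01 in GR cells and -0.10 and -0.14 in GR+MDFIC cells, with no call. EDEM1, which trims mannose from misfolded glycoproteins, DERL1 and DERL2, which serve their export, and SEC61B, a subunit of the translocon, gave differences between -0.11 and 0.07. A second probe of EDEM1 gave -0.25 ± 0.09 in GR+MDFIC cells, where the first gave 0.05, and neither was called.

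**Figure D3:**
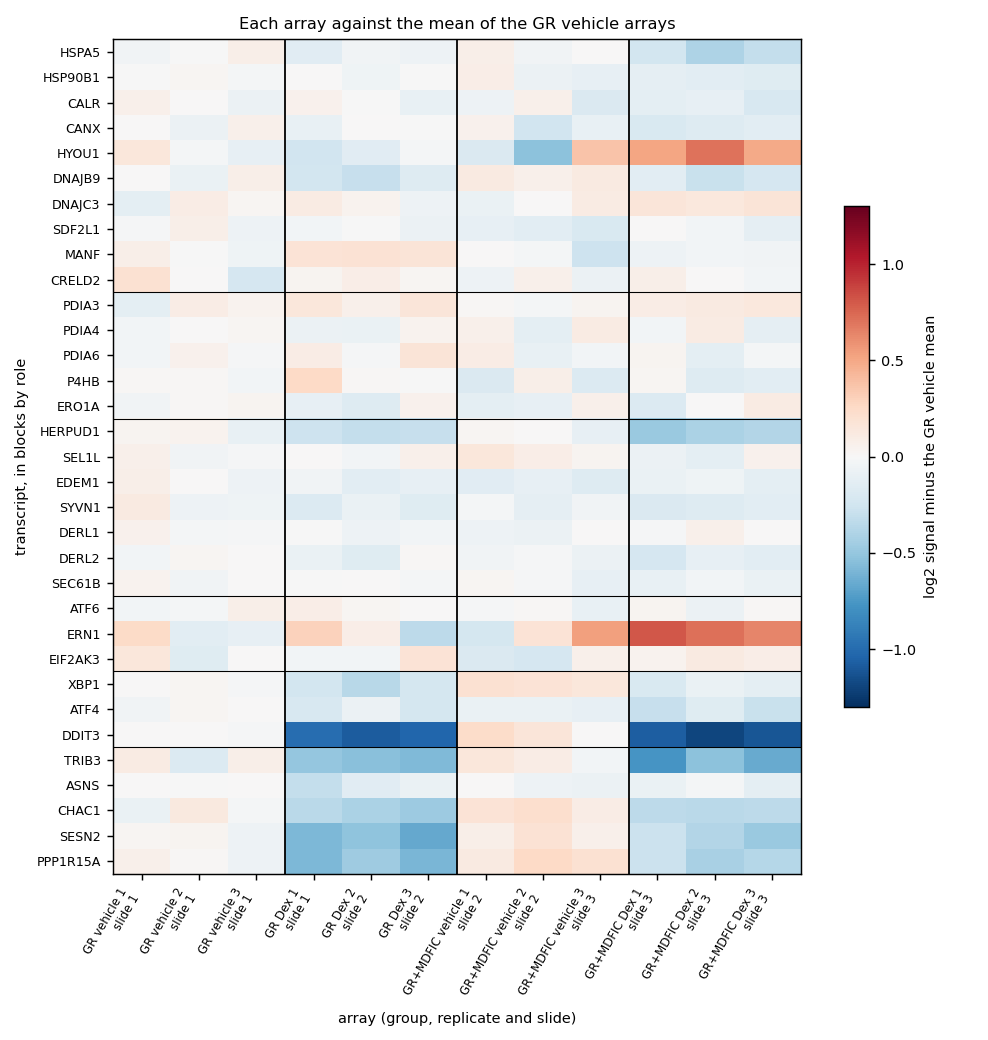
The map shows each of the 33 transcripts (rows, in blocks by role) on each of the 12 arrays (columns, in blocks by group), as log2 signal minus the mean of the 3 GR vehicle arrays, blue below and red above. The rows of DDIT3, TRIB3, CHAC1, SESN2 and PPP1R15A are blue on all 6 Dex arrays, and those of HYOU1 and ERN1 are red on the 4 arrays of slide 3, 1 of which is a vehicle array.

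With slide as a block, 4 members were called in GR cells (3.57% of all accessions), namely DDIT3, SESN2, PPP1R15A and ASNS, and 4 in GR+MDFIC cells (3.42%), namely DDIT3, TRIB3, CHAC1 and PPP1R15A. All lay below vehicle. The block leaves 1 Dex array in GR cells and 1 vehicle array in GR+MDFIC cells, and it kept 3 of the 8 calls in GR cells and 4 of the 10 in GR+MDFIC cells, with the sign of every call unchanged. With normexp background correction 0 of 8 and 1 of 10 calls were kept, in a fit that called 27 accessions higher and 3 lower in GR cells and 66 and 10 in GR+MDFIC cells. In GR+MDFIC cells normexp moved 6 of the called log2 folds by more than 1.5 times, to -0.83 for HERPUD1, -0.74 for XBP1, -0.61 for HSPA5, -0.14 for DNAJB9, 0.06 for SESN2 and 1.09 for HYOU1, and in GR cells that of HERPUD1, to -0.19. Other settings that did so in GR+MDFIC cells were the mean of both probes for HSPA5 (-0.52) and normexp with quantile scaling for HYOU1 (0.40) and the slide block for HYOU1 (0.20). Normexp together with quantile scaling kept 7 of 8 and 10 of 10.

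The Dex effects in GR+MDFIC and GR cells were compared directly in the interaction, as the effect in GR+MDFIC cells minus that in GR cells. Of the 33 members 0 passed in limma, against 0.059% of all accessions, and 3 (9.09%) had an unadjusted p under 0.05, against 9.85%. These were HYOU1 at 0.83 ± 0.27, HSPA5 at -0.23 ± 0.08 and DDIT3 at -0.23 ± 0.09 (SE, Benjamini-Hochberg adjusted p = 0.497 in limma for each). Without GR+MDFIC vehicle replicate 3, the vehicle array on slide 3, HYOU1 gave 1.08 (Benjamini-Hochberg adjusted p = 0.00858 in limma, and 0.00858 to 1 over the alternatives) and DDIT3 gave -0.30 (Benjamini-Hochberg adjusted p = 0.0403 in limma, and 0.0403 to 1 over the alternatives). These are 6.06% of the members, and the same fit called 7.56% of all accessions. That leaves the vehicle and Dex arrays of GR+MDFIC cells with no slide in common. PPP1R15A fell by 0.55 in both kinds of cells, and its interaction was 0.00, with a 95% confidence interval from -0.20 to 0.20. For the other targets the intervals ran from -0.47 to 0.10 for TRIB3, from -0.29 to 0.11 for CHAC1 and from -0.12 to 0.31 for SESN2.

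MDFIC was linked to no called change in these transcripts. In vehicle, 0 of the 33 members passed in limma between GR+MDFIC and GR cells, against 0.884% of all accessions, and 6 (18.2%) had an unadjusted p under 0.05, against 17.6%. The vehicle arrays of the 2 kinds of cells share no slide. All 33 differences, each from 1 probe per transcript, lay between -0.15 and 0.19 on the log2 scale, and 7 members (21.2%) had groups that did not overlap, against 22.1% of all accessions. The highest was PPP1R15A, at 0.19 ± 0.06 (SE, Benjamini-Hochberg adjusted p = 0.188 in limma), followed by XBP1 at 0.17 ± 0.05 (SE, Benjamini-Hochberg adjusted p = 0.136 in limma), CHAC1 and ERN1 at 0.16 and DDIT3 at 0.14. The SE was 0.06 for CHAC1 and 0.21 for ERN1. Each array of GR+MDFIC vehicle was above each array of GR vehicle for XBP1, PPP1R15A and SESN2. For DDIT3 the third GR+MDFIC array, on slide 3, read 2.56, and the other arrays read 2.79 and 2.71 on slide 2 against 2.53 to 2.56 in GR vehicle. SDF2L1 and EDEM1 gave the lowest values, both at -0.15, and did not pass (limma, Benjamini-Hochberg adjusted p = 0.209 and 0.186). A second probe of EDEM1 went the other way, at 0.26 ± 0.09 (SE, Benjamini-Hochberg adjusted p = 0.194 in limma).

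With Dex, 0 of 33 members passed between GR+MDFIC and GR cells, against 5.55% of all accessions in limma, and 7 (21.2%) had an unadjusted p under 0.05, against 24.7%. Groups did not overlap for 14 members (42.4%), against 32.2%. All GR+MDFIC Dex arrays were on slide 3 and all GR Dex arrays on the other slides, so slide and MDFIC cannot be told apart within this comparison. HYOU1 was at 0.72 ± 0.19 (SE, Benjamini-Hochberg adjusted p = 0.0579 in limma) and ERN1 at 0.70 ± 0.21 (SE, Benjamini-Hochberg adjusted p = 0.0765 in limma), both transcripts that were higher on the vehicle array of slide 3 as well. MANF was at -0.24 ± 0.07 (SE, Benjamini-Hochberg adjusted p = 0.0742 in limma), and its vehicle array on slide 3 was 0.26 below the mean of those on slide 2. HSPA5 was at -0.23 ± 0.06 (SE, Benjamini-Hochberg adjusted p = 0.0552 in limma), with 0.02 between those vehicle arrays, while its dimmer second probe gave 0.10 ± 0.19. With slide as a block, which links the groups through slide 2 and slide 3, the values became -0.07 for HYOU1, 0.29 for ERN1, 0.02 for MANF and -0.24 for HSPA5. Without GR+MDFIC vehicle replicate 3, which enters only the estimate of the spread here, these 4 members passed in limma, with Benjamini-Hochberg adjusted p of 0.0039 for HYOU1, 0.00854 for MANF, 0.0356 for ERN1 and 0.0457 for HSPA5 and unchanged differences. These are 12.1% of the members, and the same fit called 13.1% of all accessions. HYOU1 alone passed without GR+MDFIC vehicle replicate 2 (limma, Benjamini-Hochberg adjusted p = 0.0283), where 6.83% of all accessions were called.

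**Figure D4:**
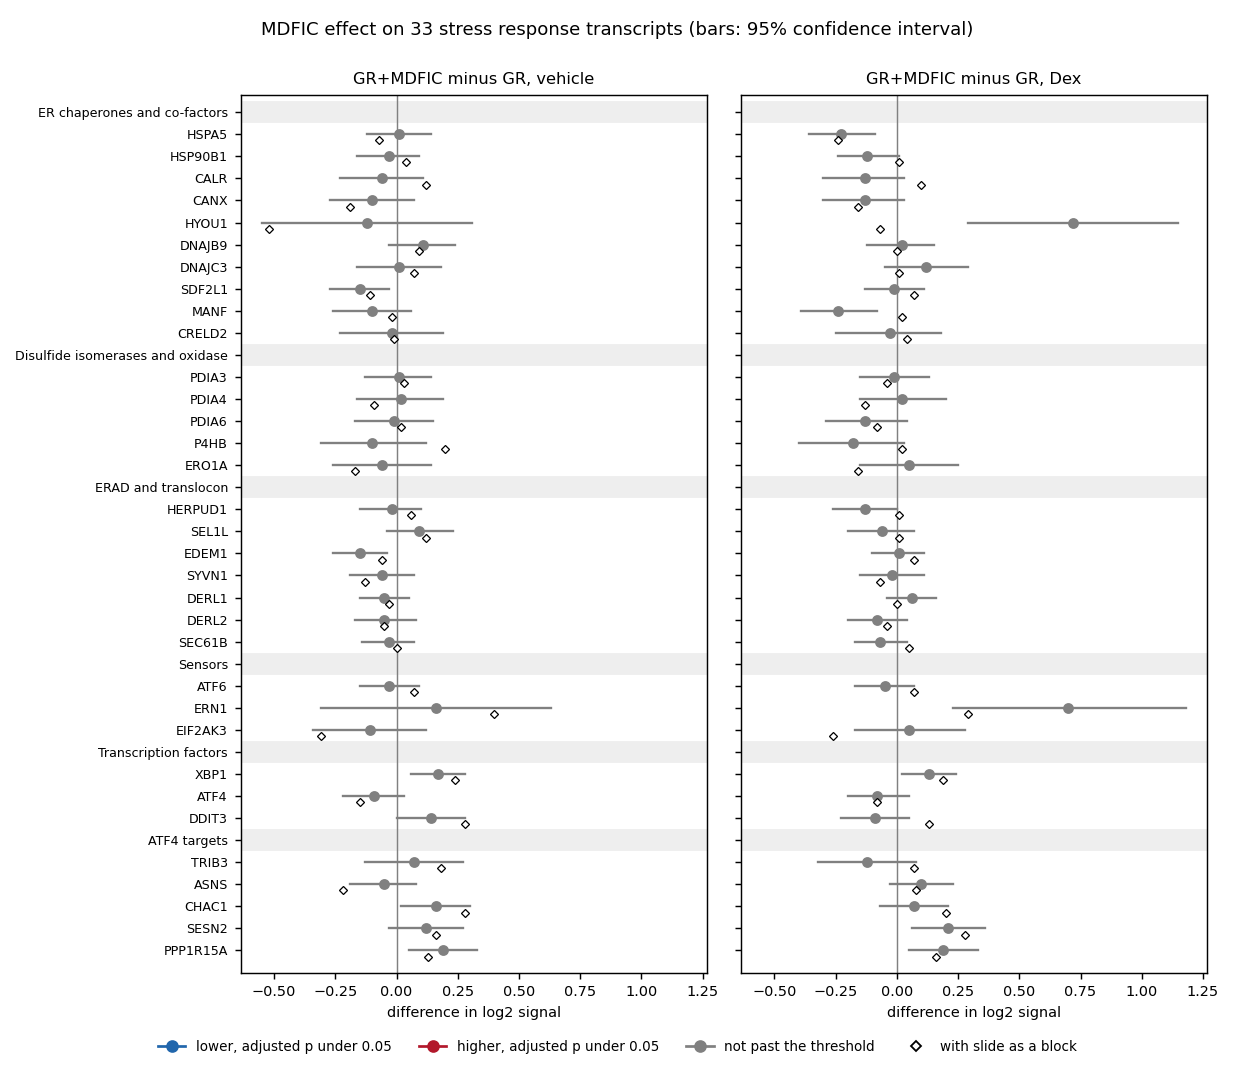
The plot shows the MDFIC effect on each of the 33 transcripts, as GR+MDFIC minus GR in log2 signal, with vehicle (left) and with Dex (right). Circles are limma estimates with 95% confidence intervals, all grey because 0 of 33 passed an adjusted p under 0.05 in either panel, and diamonds are the estimates with slide as a block. HYOU1 and ERN1 stand to the right with Dex, at 0.72 and 0.70, and their diamonds lie at -0.07 and 0.29.

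Other genes of these responses were taken from a list of 53 accessions, of which 47 were on the array and all 47 were tested. With or without MDFIC, 4 rose (8.51%) and 3 fell (6.38%) with Dex. Over all accessions 4.4% rose and 2.77% fell without MDFIC, and 6.59% rose and 6.94% fell with it. The median log2 difference over the list was -0.02 in GR cells, against -0.07 with MDFIC. The 4 that rose in GR+MDFIC cells had also risen in GR cells. MARS, the methionyl-tRNA synthetase, rose by 0.41 ± 0.07 in GR cells (SE, Benjamini-Hochberg adjusted p = 0.00485 in limma) and by 0.54 ± 0.07 in GR+MDFIC cells (SE, Benjamini-Hochberg adjusted p = 0.000701 in limma). WFS1, an ER membrane protein, rose by 0.35 and 0.44, SLC7A5, an amino acid transporter known as an ATF4 target, by 0.29 and 0.37, and EDEM3, a relative of EDEM1, by 0.21 in both. TARS, the threonyl-tRNA synthetase, fell in both, by 0.25 and 0.23. CTH, which makes cysteine, and the BiP co-chaperone DNAJB11 fell in GR cells by 0.25 and 0.15, and SARS, the seryl-tRNA synthetase, and XPOT, a tRNA exporter, fell in GR+MDFIC cells by 0.17 and 0.29. A further 7 listed genes, picked as known ATF4 targets, were without a call. They ran from -0.27 for STC2 to 0.00 for PHGDH in GR cells, and from -0.26 for STC2 to 0.06 for PHGDH in GR+MDFIC cells. The others of these were CEBPG, MTHFD2, SLC7A11, PSAT1 and SHMT2. This pick leaves out other listed genes that may be ATF4 targets. Some of those were called, as given above: TARS, CTH, SARS and XPOT lower, and MARS higher. Of those without a call, ATF5, CEBPB, AARS, WARS and YARS gave 0.01 to 0.02 in GR cells and -0.14 to 0.06 in GR+MDFIC cells. EPRS, GARS, LARS and NARS gave -0.15 to -0.02 in GR cells and -0.13 to -0.06 in GR+MDFIC cells, and none of these was called. The cystine transporter SLC7A11 gave -0.23 in GR+MDFIC cells, and -0.44 there with slide as a block. For MDFIC, with vehicle or with Dex, and for the interaction, 0 of 47 passed in limma. The slide block leaves 1 Dex array in GR cells and 1 vehicle array in GR+MDFIC cells, so only sizes are given for this list. With it SLC7A5 gave 0.35 in GR and 0.36 in GR+MDFIC cells, WFS1 0.45 and 0.42, MARS 0.46 and 0.57 and EDEM3 0.19 and 0.21. Of the falls, TARS gave -0.20 in both. In GR cells CTH gave -0.30 and DNAJB11 -0.14, and in GR+MDFIC cells SARS gave -0.09 and XPOT -0.31.

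Several probes past the filter measured 11 of the members, and none of these 11 had probes called in opposite directions in any comparison. Signs differed between probes of 1 member, with no opposite call, for 3 members in the Dex comparison of GR cells, 5 in that of GR+MDFIC cells, 5 for MDFIC with vehicle, 8 for MDFIC with Dex and 7 for the interaction.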

How the data were processed

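Each of the 12 samples is 1 one-colour Agilent array hybridised with Cy3-labelled RNA made from 500 ng of total RNA, per the labels. The deposited values are linear-scale intensities. Agilent Feature Extraction (version 12 in the submitters' processing notes, 12.0.0.7 on slides 1 and 2 and 12.0.3.1 on slide 3) subtracted background and removed spatial trends, per the file headers. The deposited flags, other values of 0 or 1, mark saturated spots, outliers and spots well above background, per the file headers. The deposited series table held the same intensities (largest difference 0).

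The log2 processed signal minus each array's 75th percentile over non-control spots was analysed. Outlier spots (34 values) were set to missing. A probe was kept if 1 or more groups had it well above background on all 3 arrays, with at least 2 unflagged arrays in every group (30167 of 41000), and the probe with the highest mean stood for an accession. The main model had 4 group means over 12 arrays in limma 3.58.1 (R 4.3.3, data.table at 1.17.8), with 8 residual degrees of freedom, two-sided tests, Benjamini-Hochberg adjustment over 23748 accessions and a threshold of 0.05. The script was tested on simulated data. Figures used matplotlib 3.10.9 in Python 3.11.15. The number of arrays limits the precision.

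The members, their roles, the list of other pathway genes and the markers were chosen with earlier results of these data known. Transcripts named as changed are those that passed the threshold, and the sensors, XBP1, ATF4, DDIT3 and HSPA5 were always given with the value on each array. Other pathway genes and markers named without a call, and ASNS and MANF, were chosen after their values were seen. Alternatives covered background correction by normexp (offset 50, on spot and background medians), scaling, filters, probes, slide and replicate blocks, the variance model, the groups fitted, thresholds and leaving out arrays. Gene names were matched by accession from the human RefSeq records, and no sequence was used here.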

Additional observations from a re-analysis of the deposited data

How the results depend on the processing

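Counts of members called that moved by more than 1.5 times are given first, each with the share of all accessions called in the same fit. With Dex in GR cells 8 were called, and 0 with normexp background correction (0.126%), 4 with slide as a fixed block (3.57%) and 5 when only the groups compared were fitted (4.59%). Smaller moves there were to 7 with median scaling (5.66%), no filter (3.88%) or a random slide block (6.35%). The mean of probes gave 9 (6.88%) and an adjusted p under 0.01 gave 6 (3.6%). With Dex in GR+MDFIC cells 10 were called, and 1 with normexp (0.32%) and 4 with the slide block (3.42%), and 8 to 11 with the other settings. Those other settings called 5.23% to 26.6% of all accessions. For MDFIC with Dex 0 were called, and 1 with quantile scaling (ERN1, 6.46%) and 2 with only the groups compared (9.5%). An intensity trend and robust variance gave 3 (8.59%). Normexp and quantile scaling together, a setting chosen after seeing the data, gave 1 (HYOU1, 9.79%). Leaving out each array in turn gave 6 to 9 calls for Dex in GR cells, 9 to 11 for Dex in GR+MDFIC cells, 0 to 4 for MDFIC with Dex and 0 to 2 for the interaction, the highest of the last 3 without GR+MDFIC vehicle replicate 3. The shares of all accessions ran from 4.52% to 7.5%, 7.64% to 26.6%, 0.379% to 13.1% and 0.00842% to 7.56%, each highest without that array. For MDFIC with vehicle, 0 were called under each setting run. SESN2 with Dex in GR+MDFIC cells reversed to 0.06 with normexp, or -0.38 relative to the median of all accessions, 0.44. By that relative measure the uncalled CALR and PDIA4 gave -0.94 and -0.82 and the uncalled SEL1L 0.21. The relative value thus does not show that SESN2 fell. The members' median moved with normexp to -0.36 in the Dex comparison of GR+MDFIC cells, and to -0.37 for MDFIC with Dex and -0.33 for the interaction. Every other called member kept its sign in all settings run, and the cause of these changes was not tested.

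Slide is only partly separable from group, since slide 3 holds all GR+MDFIC Dex arrays. Likewise slide 1 holds all GR vehicle arrays, while GR Dex replicates 2 and 3 are on slide 2. Without the arrays of slide 3, Dex in GR cells gave 7 calls (5.44% of all accessions). The other Dex comparison, MDFIC with Dex and the interaction could not be run. Replicate numbers did not pair the samples (correlations of deviations between same-numbered arrays from -0.11 to 0.06, none over 0.1). With a replicate block Dex gave 8 calls in GR cells (6.78% of all accessions) and 9 in GR+MDFIC cells (14.1%), where HYOU1 was lost. The other comparisons gave 0, against 0.484% for MDFIC with vehicle, 4.74% for MDFIC with Dex and 0.0211% for the interaction. Of 3 arrays, 2, 0, 1 and 2 correlated best with their own number for Dex in GR cells, Dex in GR+MDFIC cells, MDFIC with vehicle and MDFIC with Dex. All members were flagged well above background on every array. Their calls still varied with the background correction, as normexp kept 0 of 8 with Dex in GR cells and 1 of 10 in GR+MDFIC cells. Whether background limits these results was not tested.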
